A study of Mus musculus with 8 samples.

Results

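The 7 genes described here encode the sterol sensor of the endoplasmic reticulum and the transcription factors it controls: Insig1, Insig2, Scap, Srebf1, Srebf2, Mbtps1 and Mbtps2. Their members were taken as every bead array probe that the platform annotation names by 1 of these symbols, which gave 16 of the 25697 probes and 7 of the 16593 named genes, and every probe was kept apart from the others of its gene. The genes were chosen with results of these data known, among them probes of Insig1 that differed between the groups in opposite directions, so the differences between the groups given for these probes are a description and carry no test. Liver RNA of 8 male C3HeB/FeJ mice aged 21 weeks was measured, each on 1 Illumina bead array. Of these mice, 4 were wild type and 4 were heterozygous for Jag1K295*, a nonsense allele of the gene for the Notch ligand Jagged1, and the series presents them as a model of Alagille syndrome, a disorder of bile duct paucity. The sample titles write "hom" for the second group, whereas genotype and allele labels give heterozygous animals, and the groups follow the latter. Bulk liver RNA cannot tell fewer cells of a type from less RNA per cell.

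SREBP proteins are made as membrane-bound precursors that pair with the escort protein SCAP. When membranes are rich in sterol, INSIG proteins hold the pair in the endoplasmic reticulum. When sterol falls, COPII vesicles carry SCAP and SREBP to the Golgi, where site-1 protease (encoded by Mbtps1) and then site-2 protease (Mbtps2) release the active factor. In liver SREBP-2 (Srebf2) mainly drives cholesterol synthesis and SREBP-1c (from Srebf1) mainly drives fatty acid synthesis. Insig1 is itself a target of SREBP, which closes a feedback loop, and Insig2 has a liver transcript that insulin lowers.

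Mean signals per array ran from 422 to 488, and 11022 to 11873 probes per array passed a detection p-value of 0.05, the measure used for "above background". Heterozygous replicate 4 stood apart from the other arrays on the first principal component, at 24.3 against -12.3 to 6.90, and several values are given without it as well. The Jag1 probe was above background on 0 of 8 arrays, so the genotype could not be checked from its transcript. The hepatocyte genes Apoa1, Ttr, Cps1, Cyp2e1 and Serpina1a were above background on all 8 arrays, the Alb probe on 2 and the Tat probe on 0. The summed signal of the 7 hepatocyte genes was 83300 to 85200 in wild type and 82480 to 87790 in heterozygous liver. Among markers of other cells, 3 of 4 bile duct genes (Krt19, Sox9, Cftr) and all 4 lymphocyte genes on the array were above background on 0 arrays. The ranges of summed signal overlapped between the groups for the Kupffer cell (573 to 716 in wild type, 495 to 667 in heterozygous mice), endothelial (3626 to 4070 and 3466 to 3955), stellate (2810 to 3843 and 2911 to 3121) and erythroid (8179 to 12660 and 7396 to 8775) genes. Gene by gene, the differences were below 0 for 3 of 4 tested Kupffer cell, 5 of 6 endothelial, 4 of 4 stellate and 2 of 2 erythroid genes (background 48.1% of all tested probes). Among these genes Marco and Lyve1 were above background on 5 arrays and Kdr and Col1a1 on 4, so their signs rest on values near background. Second probes of Pecam1 (0.16) and Adgre1 (-0.15) had the opposite sign to the probes counted. Nothing is read from these counts. The haemoglobin gene Hba-a1 was at -0.45 (unadjusted p = 0.0278, limma adjusted p = 0.401). The part of these cells in the values below was not tested. The summed signals also overlapped for the bile duct (91.8 to 107.7 and 97.8 to 108.2), lymphocyte (88.7 to 92.0 and 88.7 to 96.9), adipose (68.95 to 71.5 and 68.0 to 76.1) and pancreatic genes (1894 to 2114 and 1988 to 2130). Of the adipose genes Adipoq and Plin1 were above background on 0 arrays and Lep on 2. The bile duct, lymphocyte and adipose sums came mostly from probes at background, so their overlap says nothing about the amount of these cells.

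Of the 16 member probes 12 were above background on all 8 arrays and entered the fit, and 4 did not. Signals below are log2 values after background correction and quantile normalization, and differences are heterozygous minus wild type with the standard error (SE) of the limma fit. Of the 12 probes 0 passed an adjusted p-value of 0.05 in limma (background over all 11412 tested probes 0.00876%), and 5 had an unadjusted p-value under 0.05 (background 11.2%). The 4 heterozygous arrays lay wholly above the 4 wild-type arrays for 1 probe (background 3.15%) and wholly below for 1 (background 3.10%), both of them probes of Insig1, so 2 probes had groups that did not overlap (background 6.25%). The difference was below 0 for 11 of the 12 probes (background 48.1%), with a median of -0.08 against 0.01 for all tested probes. These counts come from the comparison that led to the choice of genes, and probes of 1 gene are not independent of each other, so nothing is read from them.

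**Figure D1:**
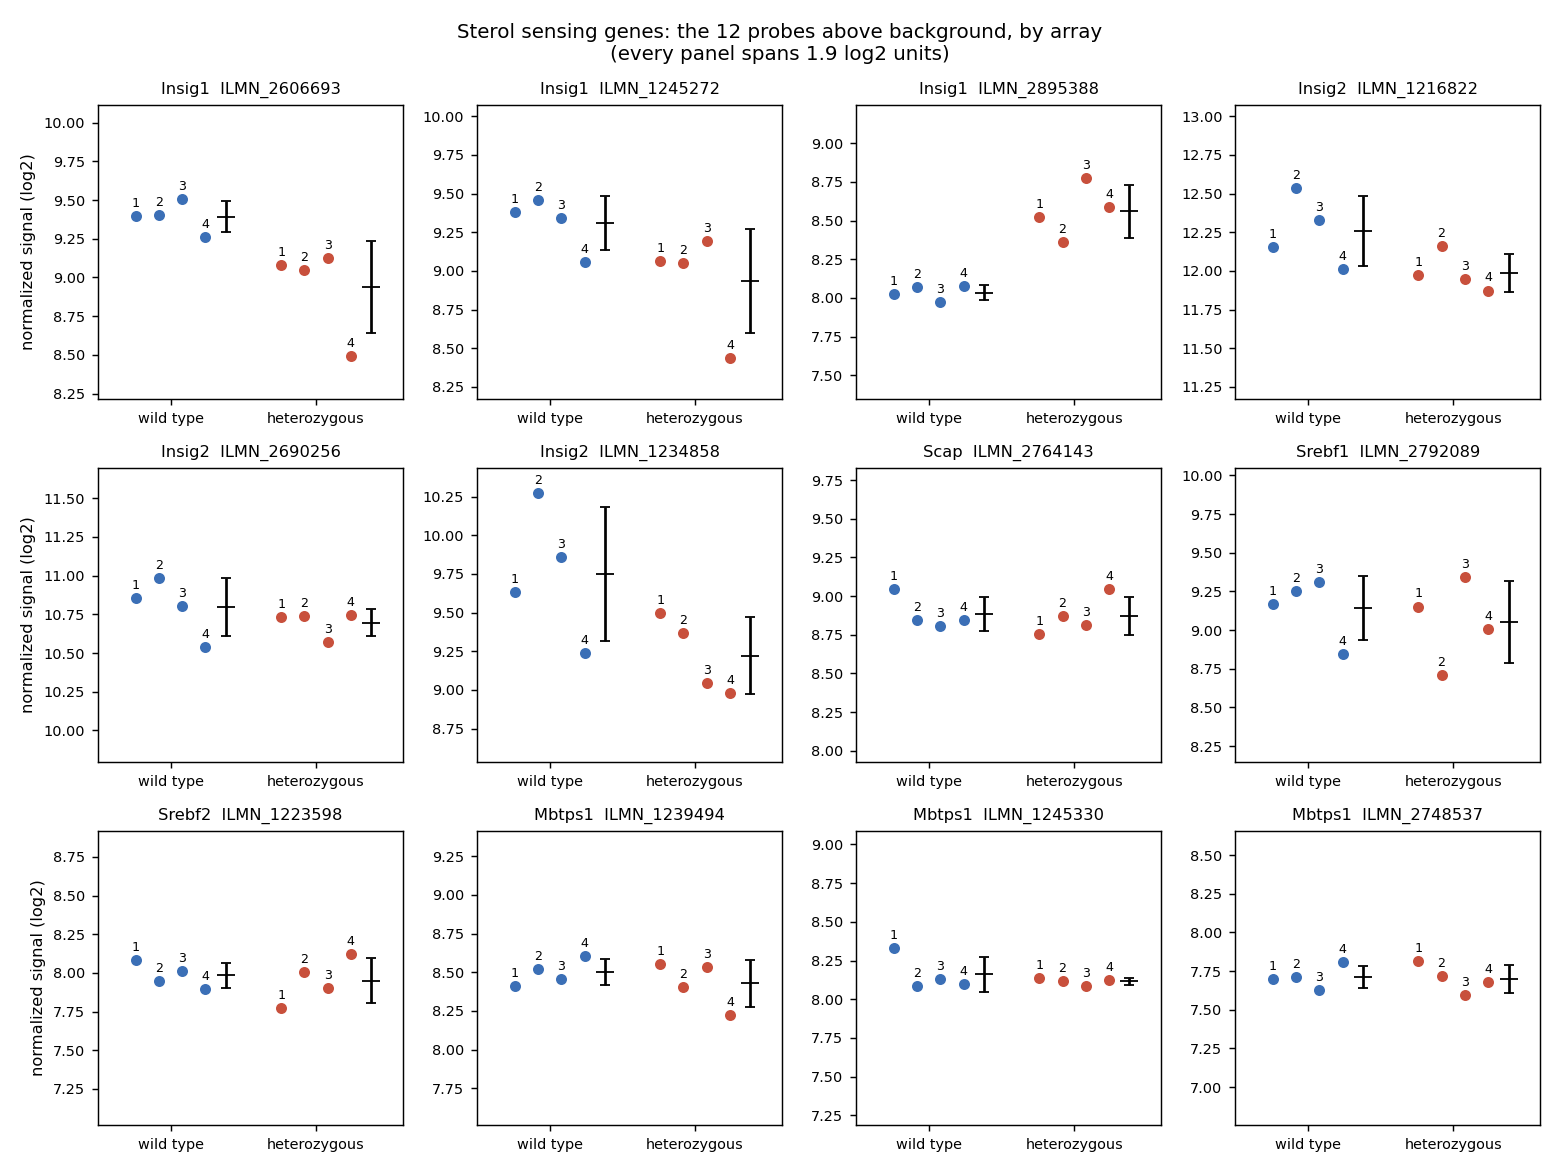
Normalized log2 signal (vertical axis) of the 12 member probes above background, with 1 point per array numbered by replicate, wild type in blue and heterozygous in red, and the group mean with its SD as a black bar. All panels span the same range of log2 units: Insig1 probe ILMN_2895388 is higher and ILMN_2606693 lower on all 4 heterozygous arrays, while the probes of Scap, Srebf2 and Mbtps1 lie at similar levels in both groups.

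Insig1, the INSIG that SREBP induces, was read by 4 probes, all annotated to the transcript NM_153526. The sequence upstream of its start is shown first, since the feedback on this gene acts through its promoter. RefSeq places 1 start on GRCm38.p6, and the 250 bases before it, at chr5:28071162-28071411 on the plus strand, read as follows, with an E-box (CACGTG) in capitals.
Insig1 upstream: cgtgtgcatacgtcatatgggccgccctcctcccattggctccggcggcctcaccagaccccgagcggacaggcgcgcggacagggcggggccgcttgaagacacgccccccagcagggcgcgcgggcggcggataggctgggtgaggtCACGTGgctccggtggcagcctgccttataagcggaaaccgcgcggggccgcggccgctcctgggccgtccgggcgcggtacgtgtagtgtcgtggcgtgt
The E-box begins at position -101 from the start. Of 32851 upstream windows of the same length that RefSeq gives, 6.02% hold CACGTG. A loose form of the sterol regulatory element, TCACNCCA, where N is any base, was searched on both strands and is not in this window (3.67% of windows hold it). Only this window was searched, so an element outside it or with other letters would be missed. The window also holds 1 match to CCAAT, the NF-Y motif (33.8% of windows), and 3 matches to the GC box GGGCGG (32.7%).

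The brightest Insig1 probe, ILMN_2606693, gave log2 signals of 9.40, 9.41, 9.50 and 9.26 for wild-type replicates 1 to 4. Heterozygous replicates 1 to 4 gave 9.08, 9.05, 9.12 and 8.49. All 4 heterozygous arrays were below the lowest wild-type array, and heterozygous replicate 4 was the lowest. The group means were 9.39 ± 0.10 (SD, n = 4) and 8.94 ± 0.30 (SD, n = 4), a difference of -0.45 ± 0.14 (SE), or 1.37-fold lower in heterozygous liver. Without heterozygous replicate 4 the difference was -0.31.

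ILMN_1245272 followed it closely. Its log2 signals were 9.38, 9.46, 9.34 and 9.05 (wild type) and 9.06, 9.05, 9.19 and 8.44 (heterozygous). Here the groups overlapped, because wild-type replicate 4 lay among the heterozygous arrays. The difference was -0.37 ± 0.16 (SE), 1.30-fold lower, and -0.21 without heterozygous replicate 4.

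ILMN_2895388 went the other way. Its log2 signals were 8.02, 8.07, 7.97 and 8.07 for the wild-type mice, which lay close together, and 8.52, 8.36, 8.77 and 8.59 for the heterozygous mice. All 4 heterozygous arrays were above the highest wild-type array, and heterozygous replicate 4, the lowest array for the probes just described, was the second highest of its group. The means were 8.03 ± 0.05 (SD, n = 4) and 8.56 ± 0.17 (SD, n = 4), a difference of 0.53 ± 0.09 (SE), or 1.44-fold higher. The non-normalized signals already show it, at 342, 385, 387 and 399.5 against 435, 400.5, 560 and 481, and so does the deposited processed table, with signals of 243, 251, 235 and 255 against 352, 313, 425 and 369.5. The last probe, ILMN_2620965, was above background on 0 arrays, with non-normalized signals of 109 to 123 and detection p-values of 0.431 to 0.937, and gives no difference.

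Read within each array, ILMN_2895388 minus the mean of the other 2 detected Insig1 probes was -1.37, -1.36, -1.45 and -1.08 for wild-type replicates 1 to 4. It was -0.55, -0.69, -0.39 and 0.12 for heterozygous replicates 1 to 4. The level of this difference depends on the probes themselves, so only its shift between arrays can be read. The group means were -1.32 ± 0.16 (SD, n = 4) and -0.38 ± 0.35 (SD, n = 4), a shift of 0.94 log2 units. It was 0.77 without heterozygous replicate 4, which gave the highest value. Among the 2048 genes with several tested probes, the probes of Insig1 spanned the widest range of differences (0.98 log2 units, rank 1), where the median gene spanned 0.15. Insig2 spanned 0.43 (rank 144) and Mbtps1 0.06 (rank 1591). Of these 2048 genes 5 had a probe wholly above and a probe wholly below the wild-type arrays, namely Aptx, Chmp2a, Ece1, Gtf2e2 and Insig1. Opposed Insig1 probes were known when the genes were chosen, so the shift, the rank of Insig1 and its place here restate that choice and test nothing. The ranges were not adjusted for the number of probes of a gene, and Insig1 has 3 tested probes. Where on the Insig1 transcript each probe lies is not given in the sources used here, and what makes them differ was not tested.

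**Figure D2:**
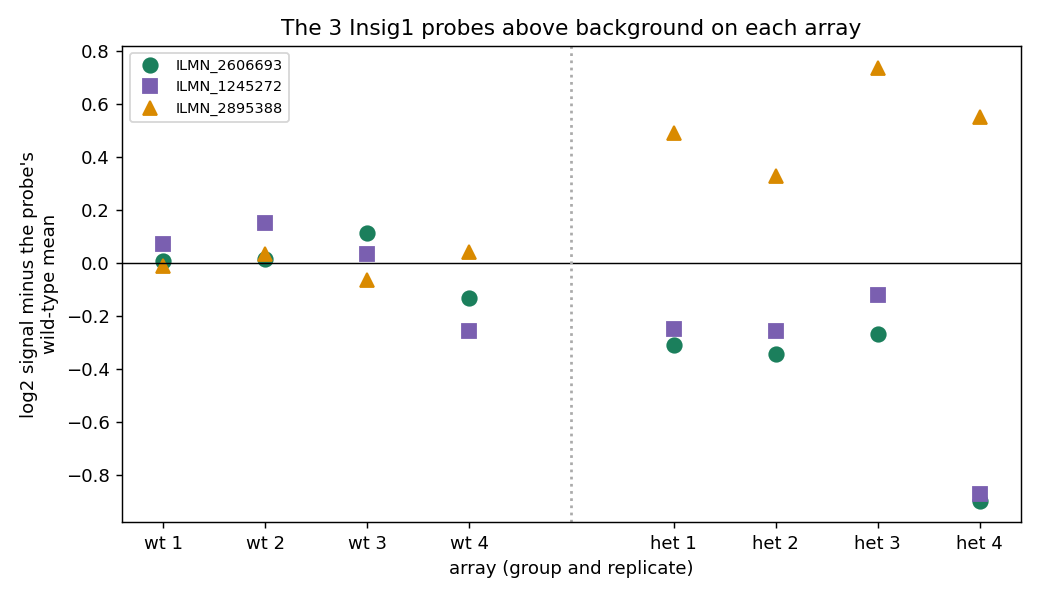
Log2 signal of the 3 detected Insig1 probes on each array, minus that probe's own wild-type mean (vertical axis), with arrays by group and replicate on the horizontal axis. On the heterozygous arrays ILMN_2895388 (triangles) lies above 0 and the other probes (circles and squares) lie below it, most of all on replicate 4.

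The likeness of the Insig1 probes was then measured without the difference between groups, as the correlation over the 8 arrays of deviations from the group means. For the pair ILMN_2606693 and ILMN_1245272 Pearson's r was 0.947 (exact permutation test within groups, 576 arrangements, two-sided, p = 0.0295, 0.133 after Benjamini-Hochberg adjustment over 9 probe pairs) and Spearman's rho was 0.762 (exact permutation p = 0.0608, adjusted 0.273). Leaving out the 2 arrays farthest from the median gave r = 0.474, so much of the relation rests on those arrays. ILMN_2895388 had no relation past the threshold with ILMN_2606693 (r = -0.07, exact permutation p = 0.839, adjusted 0.971; rho = -0.12, p = 0.839, adjusted 0.839; r = 0.236 with those arrays left out) or ILMN_1245272 (r = 0.03, exact permutation p = 0.938, adjusted 0.971; rho = 0.191, p = 0.722, adjusted 0.839; r = 0.712 with the farthest arrays left out). Both values rest on heterozygous replicate 3, without which r was -0.70 and -0.61, and median scaling gave 0.308 and 0.304. With 8 arrays these values are imprecise.

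Insig2, the INSIG that SREBP does not induce, was read by 3 probes. RefSeq lists 3 starts for this gene on chromosome 1, and the bases before each are shown because the gene makes transcripts with different first exons. None of the 3 windows holds CACGTG or TCACNCCA, so no capitals appear. They lie on the minus strand of GRCm38.p6 at chr1:121332590-121332839, chr1:121328025-121328274 and chr1:121327679-121327928, in the order of transcription.
Insig2 upstream, start 1: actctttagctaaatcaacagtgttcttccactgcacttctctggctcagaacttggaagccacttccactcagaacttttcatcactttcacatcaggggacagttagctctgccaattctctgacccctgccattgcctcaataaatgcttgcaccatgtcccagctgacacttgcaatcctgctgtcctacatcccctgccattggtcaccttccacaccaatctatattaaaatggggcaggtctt
Insig2 upstream, start 2: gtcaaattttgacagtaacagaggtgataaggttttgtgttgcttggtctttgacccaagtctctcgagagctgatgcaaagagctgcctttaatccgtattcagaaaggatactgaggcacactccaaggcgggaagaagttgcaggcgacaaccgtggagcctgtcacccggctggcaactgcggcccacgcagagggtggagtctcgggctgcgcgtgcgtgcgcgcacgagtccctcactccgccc
Insig2 upstream, start 3: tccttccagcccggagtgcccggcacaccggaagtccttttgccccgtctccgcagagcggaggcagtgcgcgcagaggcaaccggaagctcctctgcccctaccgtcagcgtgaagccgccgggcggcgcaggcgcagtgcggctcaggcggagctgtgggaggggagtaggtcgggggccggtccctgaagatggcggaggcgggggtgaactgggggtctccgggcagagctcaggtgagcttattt
Start 1 has a GC content of 47.2%, against 56.8% at start 2 and 69.6% at start 3. It holds 3 matches to CCAAT and 0 to GGGCGG, whereas the other starts hold 1 match each to GGGCGG and 0 to CCAAT.

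The Insig2 probe ILMN_1234858, annotated to NM_178082, had log2 signals of 9.63, 10.27, 9.86 and 9.24 (wild type) and 9.50, 9.37, 9.04 and 8.98 (heterozygous). The groups overlapped, with wild-type replicate 4 below heterozygous replicates 1 and 2. The means were 9.75 ± 0.43 (SD, n = 4) and 9.22 ± 0.25 (SD, n = 4), a difference of -0.53 ± 0.20 (SE), or 1.44-fold lower. Wild-type replicate 2 was the highest array, and the difference was -0.35 without it.

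ILMN_1216822, annotated to the same transcript, had log2 signals of 12.15, 12.54, 12.33 and 12.01 (wild type) and 11.97, 12.16, 11.95 and 11.87 (heterozygous). The order of the wild-type arrays was the same as for ILMN_1234858, and the difference was -0.27 ± 0.12 (SE), 1.21-fold lower, or -0.18 without wild-type replicate 2. ILMN_2690256, annotated to NM_133748, had 10.85, 10.99, 10.80 and 10.54 (wild type) and 10.73, 10.74, 10.57 and 10.74 (heterozygous). Its difference was small, -0.10 ± 0.10 (SE), and the heterozygous arrays lay within the wild-type range.

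All Insig2 probes shared the spread among the wild-type mice, with replicate 2 highest and replicate 4 lowest. The deviations of ILMN_1216822 and ILMN_1234858 from the group means had r = 0.899 over 8 arrays (exact permutation p = 0.0156, adjusted over 9 pairs 0.133) and rho = 0.905 (exact permutation p = 0.0104, adjusted 0.0938), with r = 0.664 after the 2 farthest arrays were left out. ILMN_2690256 had r = 0.818 with ILMN_1234858 (exact permutation p = 0.0764, adjusted 0.229; rho = 0.524, p = 0.274, adjusted 0.662; r = 0.617 without the farthest arrays). With ILMN_1216822 it had r = 0.736 (exact permutation p = 0.104, adjusted 0.234; rho = 0.405, p = 0.427, adjusted 0.662), and r = 0.04 without the farthest arrays. Of the probe pairs of Insig1, Insig2 and Mbtps1, 0 of 9 passed 0.05 after adjustment. Without wild-type replicate 4, the array that lay among the heterozygous ones, 5 member probes had groups that did not overlap, all of them Insig1 or Insig2 (background without that array 12.4%).

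**Figure D3:**
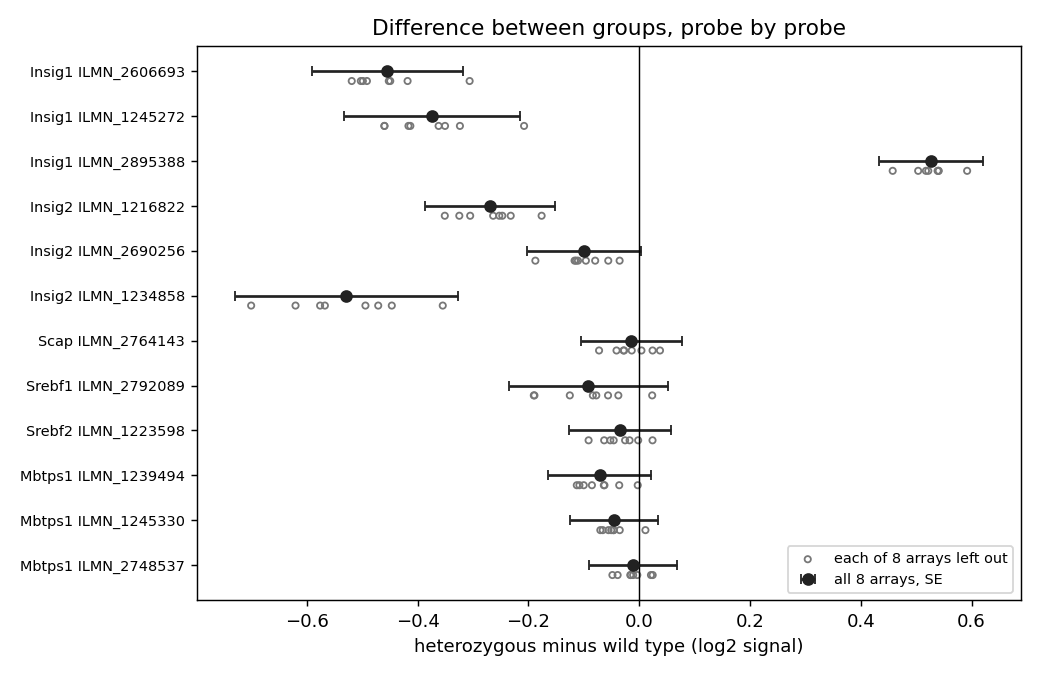
Heterozygous minus wild-type log2 signal (horizontal axis) for each of the 12 tested member probes, as the estimate from all 8 arrays with its SE (black) and the estimates with each array left out in turn (open circles). The detected Insig1 probes stand on opposite sides of 0, the Insig2 probes lie below 0, and the estimates for Scap, Srebf2 and Mbtps1 lie within 0.15 log2 units of 0.

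Scap, the escort protein that senses sterol, was read by ILMN_2764143 alone. Its log2 signals were 9.05, 8.84, 8.80 and 8.85 (wild type) and 8.76, 8.87, 8.82 and 9.05 (heterozygous), a difference of -0.01 ± 0.09 (SE). The groups overlapped almost wholly, and the highest array of each group reached the same level.

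Srebf1, which encodes SREBP-1a and SREBP-1c, was read above background by ILMN_2792089. Its log2 signals were 9.17, 9.25, 9.31 and 8.85 (wild type) and 9.15, 8.71, 9.34 and 9.01 (heterozygous). Heterozygous replicate 2 was the lowest of all arrays and heterozygous replicate 3 the highest, and the difference was -0.09 ± 0.14 (SE). This was the largest SE among the genes outside the INSIG pair. The other Srebf1 probe, ILMN_2696876, was above background on 0 arrays (detection p-values 0.325 to 0.975). The probes do not separate the SREBP-1a and SREBP-1c transcripts as far as the annotation tells.

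Srebf2, which encodes SREBP-2, was read by ILMN_1223598, with log2 signals of 8.08, 7.95, 8.01 and 7.90 (wild type) and 7.78, 8.01, 7.90 and 8.12 (heterozygous). The difference was -0.03 ± 0.09 (SE), and the heterozygous arrays reached both the lowest and the highest value. The 250 bases before its RefSeq start (GRCm38.p6, chr15:82147019-82147268, plus strand) are shown because, among the 12 upstream windows of the 7 genes, this one holds the loose sterol element TCACNCCA, in capitals, and the others do not.
Srebf2 upstream: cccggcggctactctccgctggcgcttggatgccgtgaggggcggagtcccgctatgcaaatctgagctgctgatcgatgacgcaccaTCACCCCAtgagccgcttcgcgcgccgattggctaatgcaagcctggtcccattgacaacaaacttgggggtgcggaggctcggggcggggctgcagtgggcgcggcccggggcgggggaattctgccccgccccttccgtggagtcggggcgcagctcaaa
The match begins at position -162 from the start, and 3.67% of all upstream windows hold 1. The window also holds 1 match to CCAAT and 4 to GGGCGG.

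Mbtps1, the gene for site-1 protease, was read above background by 3 probes, which gave like values. The differences were -0.07 ± 0.09 (SE) for ILMN_1239494, -0.04 ± 0.08 (SE) for ILMN_1245330 and -0.01 ± 0.08 (SE) for ILMN_2748537. Log2 signals of ILMN_1239494 were 8.41, 8.52, 8.46 and 8.60 (wild type) and 8.55, 8.40, 8.54 and 8.22 (heterozygous). Those of ILMN_1245330 lay between 8.09 and 8.33 over all 8 arrays and those of ILMN_2748537 between 7.60 and 7.81, and the groups overlapped for each. No relation between these probes passed the test, with r from -0.41 to 0.353 over the 8 arrays and 0 of the 3 pairs past 0.05 (exact permutation p from 0.149 to 0.971; adjusted 0.269 to 0.971). These values depended on the settings: r of ILMN_1239494 with ILMN_2748537 (0.353) was 0.825 without heterozygous replicate 3 and 0.804 with median scaling, and that with ILMN_1245330 (-0.41) was 0.208 with median scaling. The remaining probe, ILMN_1231860, was above background on 0 arrays.

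Mbtps2, the gene for site-2 protease, was read by ILMN_2593049, close to background. It passed the detection threshold on 0 of 4 wild-type and 2 of 4 heterozygous arrays. Its log2 signals were 4.66, 4.83, 4.69 and 4.61 (wild type) and 4.65, 5.03, 5.06 and 4.61 (heterozygous). The heterozygous mean of 4.84 lay under the detection floor of the wild-type arrays, 4.96 log2 units, so no fold is given.

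Around the sensor, 6 lists of genes were examined with 1 probe per gene, the brightest tested. Of the 65 gene entries measured 0 passed an adjusted p-value of 0.05 in limma (background 0.00876%), and 6 had an unadjusted p-value under 0.05 (background 11.2%). Listed genes with no tested probe were not analysed here. The brightest probes of the 7960 named genes with a tested probe had a median difference of 0.01.

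Targets of SREBP-2 that make and take up cholesterol were split evenly. Of 16 measured genes 8 were above 0 and 8 below, 0 had an unadjusted p-value under 0.05, and the median was 0.00. The smallest p-values above 0 were those of Tm7sf2, a sterol reductase (0.24 ± 0.11, SE; limma adjusted p = 0.457), and Idi1, the isopentenyl diphosphate isomerase (0.19 ± 0.12, SE; limma adjusted p = 0.592). Below 0 they were those of Nsdhl, a sterol dehydrogenase (-0.34 ± 0.15, SE; limma adjusted p = 0.457), and Sqle, squalene epoxidase (-0.14 ± 0.08, SE; limma adjusted p = 0.533). Without heterozygous replicate 4 Nsdhl was at -0.19. The other 3 probes of Nsdhl gave -0.36, -0.17 and -0.36, and the second Sqle probe gave -0.34. Hmgcs1, the synthase at the head of the pathway, was at 0.09.

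Targets of SREBP-1c that make fatty acids and triglycerides lay mostly below 0. Of 18 measured genes 16 were below 0 (background 48.1% of all tested probes) and 2 above. The median was -0.12, and 1 gene had an unadjusted p-value under 0.05. That gene was Pnpla5, a lipase-like protein of lipid droplets (-0.57 ± 0.21, SE; limma adjusted p = 0.379). Its heterozygous mean of 4.79 lay under the detection floor of the wild-type arrays, 4.96 log2 units, as for Mbtps2. The size of the Pnpla5 difference therefore cannot be read. The other gene the rule names below 0 was Gpam, the first enzyme of glycerolipid synthesis (-0.65 ± 0.31, SE; limma adjusted p = 0.463), and above 0 they were Scd1, the stearoyl-CoA desaturase (0.10 ± 0.09, SE; limma adjusted p = 0.672), and Acaca, acetyl-CoA carboxylase (0.05 ± 0.11, SE; limma adjusted p = 0.903). Without heterozygous replicate 4 the count was 13 below 0 and 5 above, and the median was -0.07. The mean of the list deviated from its group mean by -0.35 on heterozygous replicate 4 and by 0.24 on heterozygous replicate 3. Genes of the list are thus not independent of each other, and nothing is read from the count. The median was -0.19 without heterozygous replicate 3. For Gpam the log2 signals were 7.96, 8.44, 8.22 and 7.97 (wild type) and 7.58, 7.48, 8.37 and 6.53 (heterozygous). Heterozygous replicate 4 was the lowest of all 8 arrays and heterozygous replicate 3 the second highest, and the Gpam difference was -0.33 without replicate 4. Such values for single genes of the lists were added after the data were seen.

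Proteins that bind INSIG or carry out sterol-regulated degradation gave 6 of 12 measured genes above 0 and 6 below, with a median of -0.00. The ubiquitin-conjugating enzyme gene Ube2j2 (-0.26 ± 0.11, SE; limma adjusted p = 0.435) was the 1 with an unadjusted p-value under 0.05, followed below 0 by Sel1l of the degradation complex (-0.19, limma adjusted p = 0.512; its other probe 0.03). Above 0 the smallest p-values were those of Aup1 (0.14, limma adjusted p = 0.521; its other probe -0.16) and Vcp, the segregase that extracts ubiquitinated proteins (0.14, limma adjusted p = 0.579). The INSIG-binding ubiquitin ligase gene Rnf139 was at -0.09 (-0.17 without heterozygous replicate 4) and Pgrmc1 at 0.09.

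COPII coat genes gave 4 of 8 measured genes above 0 and 4 below, with a median of 0.03. The small GTPase Sar1b, by which the coat assembles, was at -0.25 ± 0.09 (SE; limma adjusted p = 0.385). A second Sar1b probe gave -0.25, whereas its paralogue Sar1a was at 0.16 ± 0.07 (SE; limma adjusted p = 0.472). Sec23a was at -0.36 (limma adjusted p = 0.440), or -0.21 without heterozygous replicate 4, and Sec24c at 0.15 (limma adjusted p = 0.540). Of other substrates of site-1 protease, site-2 protease or both, 2 of 5 were above 0 and 3 below, with a median of -0.03. The lowest was Creb3l2 (-0.37 ± 0.15, SE; limma adjusted p = 0.401), followed by Gnptab (-0.12, limma adjusted p = 0.756), while Atf6b (0.09, limma adjusted p = 0.797) and Creb3 (0.03, limma adjusted p = 0.934) were above 0. Without heterozygous replicate 4 Creb3 was at -0.04.

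LXR, the oxysterol receptor, drives Srebf1 transcription in liver. Of 6 measured genes in the LXR list 3 were above 0 and 3 below, with a median of -0.01. The receptor gene Nr1h3 was at 0.02, with its other probe at -0.23. Pltp, the phospholipid transfer protein, had log2 signals of 9.94, 10.07, 9.75 and 10.20 (wild type) and 8.96, 9.49, 9.44 and 7.73 (heterozygous). All 4 heterozygous arrays were below the lowest wild-type array, with replicate 4 far below the rest. The difference was -1.08 ± 0.33 (SE; limma adjusted p = 0.309), and a second Pltp probe gave -1.09. Without heterozygous replicate 4 the Pltp difference was -0.69. The sterol exporter genes Abcg5 (-0.08, limma adjusted p = 0.842) and Abcg8 (0.05, limma adjusted p = 0.915) and Abcg1 (0.07, limma adjusted p = 0.856) lay near 0, and that of Abcg1 was -0.0038 without heterozygous replicate 4.

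**Figure D4:**
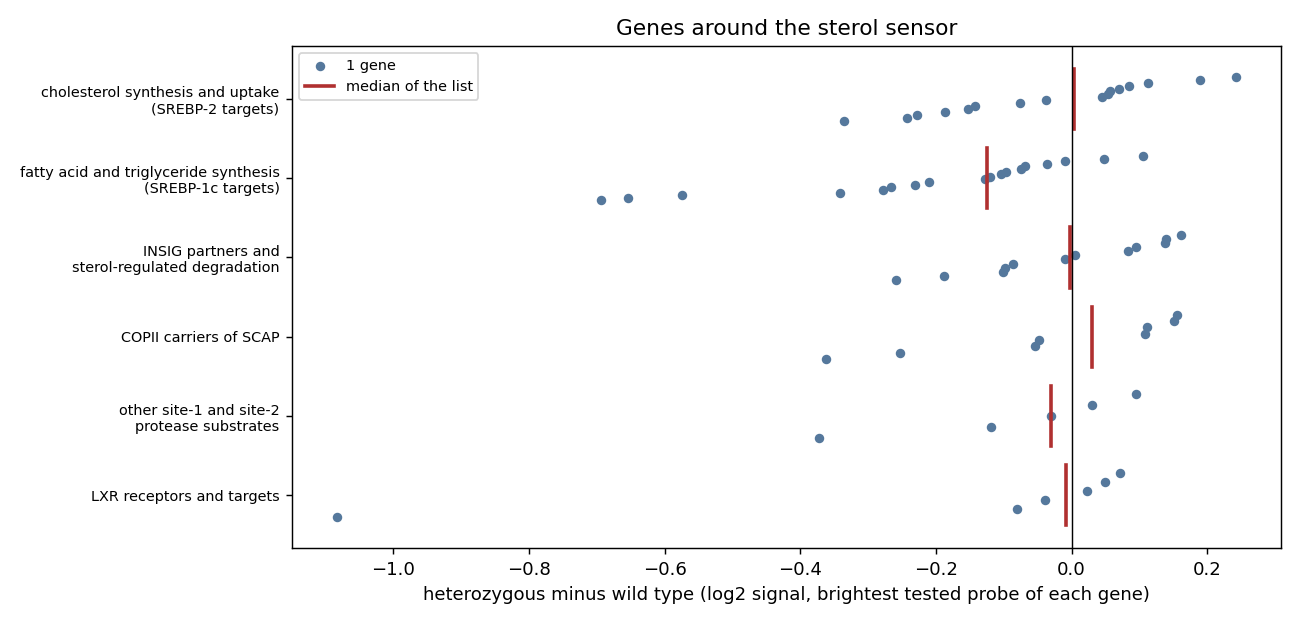
Heterozygous minus wild-type log2 signal (horizontal axis) of the measured genes in 6 lists around the sterol sensor, with 1 point per gene by its brightest tested probe and a red bar at the list's median. The medians lie between -0.12 and 0.03, and the lowest point is Pltp at -1.08.

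How the member probes varied with the SREBP target genes from mouse to mouse was examined apart from genotype. Deviations from the group means were correlated between the 12 member probes and the mean of each SREBP target list, 24 relations in all. Insig1 is itself such a target, so its relations are between targets. The Insig1 probe ILMN_1245272 had r = 0.951 with the fatty acid synthesis genes (exact permutation p = 0.0069, 0.167 after Benjamini-Hochberg adjustment over the 24), rho = 0.786 (exact permutation p = 0.0330, adjusted 0.375) and r = 0.822 after the 2 farthest arrays were left out. ILMN_2606693 had r = 0.930 (exact permutation p = 0.0191, adjusted 0.229), rho = 0.691 (exact permutation p = 0.102, adjusted 0.410) and r = 0.556 without the farthest arrays. For ILMN_2895388 r was 0.118 (exact permutation p = 0.879, adjusted 0.917), rho was -0.02 (exact permutation p = 0.979, adjusted 1) and r without the farthest arrays was -0.43. With cholesterol synthesis genes ILMN_1245272 had r = 0.775 (exact permutation p = 0.101, adjusted 0.604; rho = 0.786, p = 0.0503, adjusted 0.375; r = 0.771 without the farthest arrays) and the Srebf1 probe had r = 0.738 (exact permutation p = 0.0764, adjusted 0.604; rho = 0.857, p = 0.0191, adjusted 0.375; r = 0.903). The Srebf1 probe had r = 0.352 with the fatty acid synthesis genes (exact permutation p = 0.552, adjusted 0.726; rho = 0.429, p = 0.406, adjusted 0.696; r = 0.884 without the farthest arrays). The Srebf2 probe had r = -0.31 with the cholesterol synthesis genes (exact permutation p = 0.620, adjusted 0.744; rho = -0.26, p = 0.625, adjusted 0.773; r = -0.21). Of the 24 relations 0 passed 0.05 after adjustment. Both sides of each relation come from the same arrays and share their normalization.

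**Figure D5:**
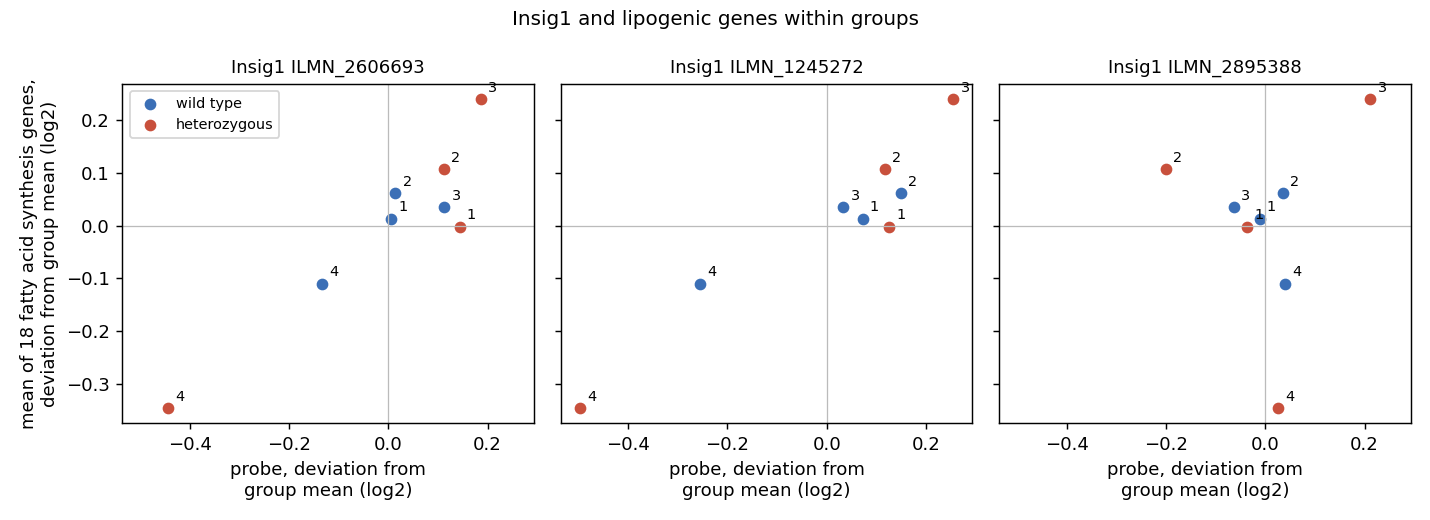
Mean deviation of 18 fatty acid synthesis genes from the group mean (vertical axis, log2) against the deviation of each detected Insig1 probe (horizontal axis, log2), with 1 point per array labelled by replicate, wild type in blue and heterozygous in red. The points of ILMN_2606693 and ILMN_1245272 run from replicate 4 of each group at the lower left to heterozygous replicate 3 at the upper right (r = 0.930 and 0.951), and those of ILMN_2895388 show no such order (r = 0.118).

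The genes whose deviations were most like those of each member were picked by Pearson's r over the 8 arrays among 10746 other named probes, so a high r is what the choice guarantees. For the Insig1 probe ILMN_2606693 the most alike was Thrsp, a lipogenic gene that also stands in the fatty acid synthesis list (r = 0.995), followed by the monooxygenase Fmo5 (0.977) and Lrrfip1 (0.974). Thrsp had log2 signals of 10.68, 10.59, 10.99 and 10.06 (wild type) and 10.30, 10.19, 10.52 and 8.54 (heterozygous). Like the Insig1 probe, it was lowest on replicate 4 in each group, and its difference was -0.69, or -0.24 without heterozygous replicate 4. For ILMN_1245272 they were Fam149b (0.989), Lrrfip1 (0.986) and a probe of Epas1, the hypoxia-inducible factor 2 alpha (0.982). For ILMN_2895388 they were another probe of Epas1 (0.977), Olfr1208 (0.976) and Zfp27 (0.960). For Insig2 ILMN_1216822 they were Pigc (0.965), Fkbp14 (0.965) and Trpm2 (0.960). For Scap they were Mmp14 (0.991), Tead2 (0.978) and Ap3d1 (0.971), for Srebf1 Saraf (0.980), Ctdsp1 (0.974) and Ddb2 (0.969), for Srebf2 Atp2b4 (0.968), Fahd1 (0.951) and Cct3 (0.942), and for Mbtps1 ILMN_1239494 Rbm10 (0.978), Dsg2 (0.966) and Stx8 (0.964). After the 2 arrays farthest from the median were left out, r of these pairs ran from 0.564 (Zfp27) to 0.9855 (Dsg2). Spearman's rho over the 8 arrays ran from 0.738 (Zfp27 and Ap3d1) to 0.976.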

How the data were processed

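The authors deposited, per the file headers, non-normalized signal intensity for 25697 probes on 8 arrays each with its detection p-value, and a processed intensity table with background subtraction and normalization steps not given in the sources used here. Its values are on a linear scale, with array medians of 8.96 to 8.99 and 8442 to 8454 values per array below 0. Per the submitters' processing notes GenomeStudio 2011.1 was used. Signals were corrected with nec in limma 3.58.1 (R 4.3.3; offset 16), quantile normalized and taken as log2. Probes with detection p-value under 0.05 on at least 4 of 8 arrays were tested (11412, of which 10758 are named), two-sided, with lmFit, eBayes and Benjamini-Hochberg adjustment over all of them, at a threshold of 0.05. The steps were tested on simulated data. Probe names are GEO's platform annotation, and an update to GRCm38.p6 symbols changed 0. Upstream sequences are RefSeq's, and all 7 genes matched by symbol.

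The members and lists were chosen with earlier results of these data known. All member probes are named. From each list the 2 genes per direction with the smallest p-value are named, and for members the 3 most alike genes. Genes named beside these were chosen after their values were seen. The precision rests on 4 mice per group, each with its own number in the labels. Alternatives were no background correction, offset 50, median scaling, no filter, a stricter detection filter (p-value under 0.01 on every array), the values of the processed table, array weights, a robust prior with trend, a replicate block, each array left out in turn, adjusted p-value under 0.10 and the mean of a gene's probes. No chip is named, so a BeadChip block was not run and a batch could not be examined.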

Additional observations from a re-analysis of the deposited data

Results flagged for a closer look

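Each tested member probe was examined in both groups for a lone array, 24 sets of 4 arrays in all. In 2 of them 1 array stood apart from the others of its group relative to their spread, and by chance about 1 in 20 sets would do so. The sets share arrays, and probes of 1 gene are not independent of each other, so that rate is a rough guide. For Insig1 ILMN_2606693 heterozygous replicate 4 was at 8.49, against 9.05 to 9.12 on the remaining heterozygous arrays. For Insig2 ILMN_2690256 heterozygous replicate 3 was at 10.57, against 10.73 to 10.74. It was flagged because those arrays lay so close together, and it was within the wild-type range of 10.54 to 10.99.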

How the results depend on the processing

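The 12 member probes kept their differences within 1 SD of the spread between arrays in 203 of 204 alternative values. The exception was Insig1 ILMN_2895388, at 0.40 without background correction. Most of these values could hardly fail. Both changes of filter, the replicate block and the robust prior leave a difference as it is by design. Leaving out 1 of 4 arrays can hardly move a difference by 1 SD. The count is therefore no measure of robustness, and a turned sign can still lie within 1 SD. The opposite signs of the Insig1 probes held under all alternatives run, with the shift of ILMN_2895388 against the others from 0.74 (no background correction) to 1.04. The count of member probes past the threshold stayed at 0 under every alternative run, and so did that of each of the 6 lists. The count of member probes whose groups did not overlap ran from 2 to 5 with an array left out. Over all probes the count past the threshold was 0 without background correction, 0 without the filter and 0 with the replicate block, and ran from 0 to 7 with an array left out. The block changed no call among members or lists, and the numbers were not taken as pairs: same-numbered arrays had correlations of deviations of -0.07, 0.133, 0.095 and 0.077, and 2 of the 4 wild-type arrays were most like the heterozygous array of their number. The LXR median was -0.066 with median scaling, which moved the median of all tested probes from 0.01 to -0.04, and ran from -0.060 to 0.019 with an array left out. That of the INSIG partners ran from -0.021 to 0.062 with an array left out, that of the cholesterol list from -0.071 to 0.030, that of the COPII list from -0.033 to 0.093 (-0.051 without the filter) and that of the protease substrates from -0.11 to 0.0021. The correlation of Insig2 ILMN_1216822 with ILMN_1234858 ran from 0.800 to 0.984. Other probe pairs ranged more widely: over all alternatives ILMN_2895388 ran from -0.70 to 0.308 with Insig1 ILMN_2606693 and from -0.61 to 0.304 with Insig1 ILMN_1245272, and Mbtps1 ILMN_1239494 from -0.61 to 0.208 with ILMN_1245330 and from 0.075 to 0.825 with ILMN_2748537. The cause of these moves was not tested. The signs of the small differences of Scap, Srebf1, Srebf2, Mbtps1 ILMN_1245330 and Mbtps1 ILMN_2748537 turned under at least 1 alternative. The Mbtps2 probe was too close to background for a difference.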
